A study of Mus musculus with 4 samples.

Results

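The thick filament of heart muscle was described here through 7 genes: the myosin heavy chains Myh6, Myh7 and Myh7b, the ventricular light chains Myl2 and Myl3, the cardiac myosin binding protein Mybpc3, and Mylk3, the kinase of the regulatory light chain. Members were the rows of the expression table whose gene name equalled 1 of these symbols, and all 7 were found once among 55401 rows. Poly(A) RNA from whole hearts of 4 mice aged 8 weeks was compared: 2 mice were wild-type and 2 were Ctcf heterozygous, each gave 1 library, and the labels number the replicates of a genotype 1 and 2. The heterozygous mice (Ctcf +/R567W, C57BL/6N) carried the R567W substitution in the zinc finger protein CTCF on one allele. It was made by CRISPR/Cas9 editing of the mouse line, so every cell type of the heart carried it, and no source used here gave the sex of the animals. The comparison bears on whether the contractile apparatus of adult heterozygous hearts differs in its transcripts from that of wild-type hearts.

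Myosin heavy chains form the rod and the motor heads of the thick filament, and each head binds an essential and a regulatory light chain at its lever arm. The adult mouse ventricle uses mainly the fast alpha heavy chain encoded by Myh6, whereas the slower beta chain of Myh7 prevails in the fetal ventricle and is a common sign of cardiac stress when it returns. Phosphorylation of the regulatory light chain by Mylk3 and of cardiac myosin binding protein C by protein kinase A tunes how readily heads reach the thin filament.

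The values were TPM, relative transcript abundances that are scaled by transcript length and can be compared between genes. They keep no read depth, so the counting error behind each value is unknown. Mitochondrial genes and nuclear genes with a near-identical sequence took 78.8% and 76.0% of TPM in wild-type and 85.8% and 82.4% in heterozygous hearts, in replicate order as throughout. All other genes thus shared less of the total in heterozygous hearts, and deposited TPM were lower in both heterozygous hearts than in both wild-type hearts for 67.8% of the 10036 genes tested. Differences were therefore measured on scaled TPM, the deposited TPM divided by median-of-ratios factors of 1.08, 1.27, 0.821 and 0.910, with 1 added before log2 was taken. A gene counted as called where limma gave an adjusted p below 0.05 with a fold change above 1.5, and this held for 3 genes, none of them a member. Ctcf itself was listed at 6.66 and 7.59 TPM in wild-type and 6.14 and 5.20 TPM in heterozygous hearts, a log2 fold change of 0.09 ± 0.16 (SE; limma, adjusted p = 0.834). A substitution need not alter the amount of mRNA, so this value did not test the genotype labels.

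Thick filament transcripts were among the most abundant in these hearts. The members together took 9.79% and 9.52% of TPM outside mitochondrial genes and their copies in wild-type hearts, and 9.04% and 9.45% in heterozygous hearts. Their order by deposited TPM was the same in all 4 hearts, with Myh6 first, followed by Myl2, Myl3, Mybpc3, Myh7b, Mylk3 and Myh7. Outside the mitochondrial genes and their copies, Myh6 ranked 1, Myl2 ranked 2 and Myl3 ranked 6 by mean TPM over the 4 hearts. Mybpc3 stood at rank 96, Myh7b at 628, Mylk3 at 856 and Myh7 at 1645. Among neighbours in the order, the ranges over the 4 hearts overlapped for Myh6 and Myl2, for Myh7b and Mylk3, and for Mylk3 and Myh7, although within each heart the order held.

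**Figure D1:**
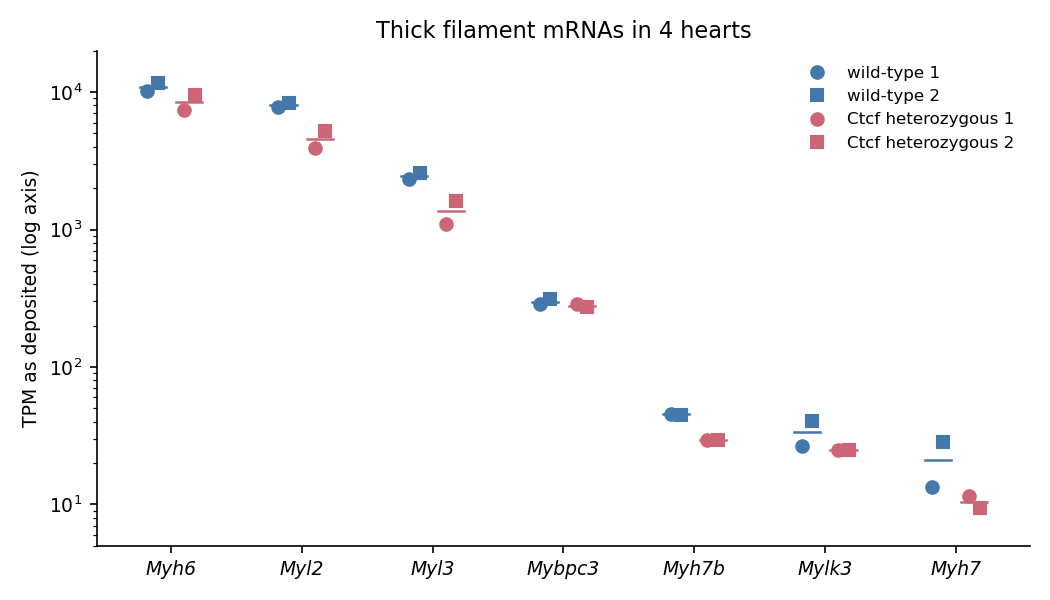
Deposited TPM of the 7 thick filament genes (log axis) in each of 4 hearts, with circles for replicate 1, squares for replicate 2 and a horizontal bar for the mean of each genotype (n = 2). Myh6 lay between 7466 and 11559 TPM and Myh7 between 9.40 and 28.5 TPM, and the order of the genes was the same in every heart.

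None of the 7 members passed the call in either direction, against 0.0299% of all genes tested, and none had an unadjusted p under 0.05, against 12.3% of all genes. On scaled TPM the genotypes did not overlap for 3 members, Myl2 and Myl3 being lower and Mybpc3 higher in both heterozygous hearts. Such separation occurred for 47.0% of all genes (24.0% lower and 23.0% higher), so 3 of 7 was no more than the background. The median log2 fold change of the members was -0.17, beside -0.01 over all genes tested. With 2 libraries per genotype the limma p values rest on the spread between these 4 hearts. The variance of each gene was also drawn towards a trend over all genes tested. That spread holds counting error as well as differences between animals. In RNA from whole hearts, fewer cells of a type and less RNA per cell cannot be told apart.

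Myh6 (ENSMUSG00000040752.16, chr14:54941921-54966927, minus strand, mm10) encodes the alpha heavy chain, the main motor of the adult mouse heart. It was listed at 10266 and 11559 TPM in wild-type hearts and at 7466 and 9534 TPM in heterozygous hearts. After scaling the levels became 9484 and 9120 TPM in wild-type and 9096 and 10472 TPM in heterozygous hearts. The deposited values were lower in both heterozygous hearts, but the scaled values overlapped. The means on the scaled measure were 9302 ± 257 and 9784 ± 973 TPM (SD, n = 2). The log2 fold change was 0.07 ± 0.21 (SE), with a 95% interval from -0.43 to 0.57 (limma, adjusted p = 0.908), and it turned to -0.37 on TPM as deposited.

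Myh7 (ENSMUSG00000053093.16, chr14:54970684-54994626, minus strand) lies 3756 bases upstream of Myh6 in the same orientation and encodes the beta heavy chain. It was listed at 13.3 and 28.5 TPM in wild-type hearts and at 11.4 and 9.40 TPM in heterozygous hearts. Scaled, the levels were 12.3 and 22.5 TPM against 13.9 and 10.3 TPM. The spread came chiefly from wild-type heart 2, which held the highest value, whereas wild-type heart 1 lay within the heterozygous range on the scaled measure. The log2 fold change was -0.44 ± 0.29 (SE; 95% interval from -1.13 to 0.24; limma, adjusted p = 0.536). Without wild-type replicate 2 it was -0.04, and without wild-type replicate 1 it was -0.86, so the value depended on which wild-type heart was kept.

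Both heavy chain genes are close copies, which limits how well short reads can be divided between them. Their annotated coding sequences (5814 bases for Myh6 and 5805 bases for Myh7, GENCODE M21) were identical at 5325 of 5799 aligned bases, or 91.8%. The first 30 coding bases are shown because they hold the translation start and show how the copies differ, with capitals at the 7 positions where they differ.
Myh6: atgAcggaCgcCCagatggctgACttCggg
Myh7: atgGcggaTgcAGagatggctgCAttTggg
The longest stretch without any difference ran over 245 bases, from base 4246 to base 4490 of the Myh6 coding sequence, and opened with the 30 bases below, in which no base is capitalised because none differs.
Myh6 and Myh7: ctggagaagaccaagcacaggctgcagaat
Over the longest annotated transcripts, 22.6% of the 50-base windows of Myh6 and 22.2% of those of Myh7 also occurred on the same strand of another gene, and at 150 bases the shares were 5.53% and 5.43%. The other 5 members had no such window. The program that made the values divides reads that fit several places by estimation. With Myh6 so far above Myh7, reads of Myh6 given to Myh7 could make up part of the Myh7 value, and their share was not tested.

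The ratio of Myh7 to Myh6 within a heart does not depend on scaling and is the usual measure of the isoform balance. It was 0.130% and 0.246% in wild-type hearts and 0.153% and 0.0986% in heterozygous hearts. The heterozygous values lay around the lower wild-type value, so the genotypes overlapped, and neither heterozygous heart exceeded the higher wild-type ratio. The means were 0.188% ± 0.0823 and 0.126% ± 0.0383 (SD, n = 2), a log2 difference of -0.54 (exact permutation test, two-sided, p = 0.667). The gap between the wild-type hearts alone was 0.92 on the log2 scale, larger than the difference between the genotypes. With 2 hearts against 2 the smallest two-sided p of this test is 0.333, and over the 7 ratios compared in this way every Benjamini-Hochberg adjusted p was 0.667. Myh6 made up 99.4% and 99.4% of the 3 heavy chain genes' TPM in wild-type hearts and 99.5% and 99.6% in heterozygous hearts.

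A second RNA is read from the opposite strand of this locus. Mhrt (chr14:54968678-54974349, plus strand), a long noncoding RNA of the adult heart antisense to Myh7, was listed at 70.0 and 78.2 TPM in wild-type and 55.1 and 61.5 TPM in heterozygous hearts. It thus stood at 525% and 275% of the Myh7 level in wild-type hearts and at 483% and 654% in heterozygous hearts. Of its 1214 annotated exonic bases, 484 (39.9%) overlapped exons of Myh7. Whether the libraries kept strand was not given in the sources used here, so reads from the shared bases cannot be told apart with certainty. With Mhrt added to Myh7, the log2 difference of the ratio to Myh6 was -0.09 in place of -0.54. Most of that sum was Mhrt in every heart, so the value does not show how shared reads were divided.

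Myh7b (ENSMUSG00000074652.3, chr2:155611212-155634307, plus strand) encodes a further, slow-type heavy chain related in sequence to Myh7. It was listed at 45.7 and 45.0 TPM in wild-type hearts and at 29.6 and 29.6 TPM in heterozygous hearts. The replicates of each genotype differed little on this scale, and both heterozygous values were lower. After scaling the levels were 42.2 and 35.5 TPM against 36.0 and 32.5 TPM, which overlapped. The log2 fold change was -0.17 ± 0.18 (SE; 95% interval from -0.60 to 0.25; limma, adjusted p = 0.693). As a share of Myh6 it was 0.445% and 0.389% in wild-type and 0.396% and 0.310% in heterozygous hearts, and the log2 difference was -0.25 (exact permutation test, p = 0.667).

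Each of the 3 heavy chain genes holds a microRNA in an intron, on the strand of its host, and these microRNAs are known to act on the balance of fast and slow myosins. The mature sequences, from the RefSeq annotation of GRCm38.p6, are shown with the seed (bases 2 to 8) in capitals because the seeds are alike. The seed is identical in the miR-208 pair and differs at its last base in miR-499-5p.
miR-208a-3p: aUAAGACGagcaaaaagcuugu
miR-208b-3p: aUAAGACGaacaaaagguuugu
miR-499-5p: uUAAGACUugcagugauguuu
The hairpin of miR-208a lies in Myh6 (chr14:54949060-54949142), that of miR-208b in Myh7 (chr14:54975700-54975776) and that of miR-499 in Myh7b (chr2:155622880-155622958). The 2 members of the miR-208 family shared all 7 seed bases and 19 of 22 bases in all, whereas miR-499-5p shared 6 of 7 seed bases with each of them. The rows of the 3 microRNA genes were listed at 0 in all 4 hearts. Libraries from poly(A) RNA are not made to capture mature microRNAs, so no level of these microRNAs was measured.

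The ventricular light chains were lower in both heterozygous hearts on deposited TPM, on scaled TPM and per heavy chain. Myl2 (ENSMUSG00000013936.12, chr5:122100951-122113472, plus strand) encodes the ventricular regulatory light chain. It was listed at 7740.3 and 8286 TPM in wild-type hearts and at 3899 and 5181 TPM in heterozygous hearts. Both heterozygous hearts were below both wild-type hearts, and remained so after scaling, at 7151 and 6538 TPM against 4751 and 5691 TPM. The scaled means were 6844 ± 433 and 5221 ± 665 TPM (SD, n = 2), a fold of 0.763. The log2 fold change of -0.39 ± 0.22 (SE; 95% interval from -0.91 to 0.12) did not pass the test (limma, adjusted p = 0.479).

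Myl3 (ENSMUSG00000059741.13, chr9:110741861-110769798, plus strand) encodes the ventricular essential light chain, which is also used in slow skeletal muscle. Deposited levels were 2342 and 2571 TPM in wild-type hearts and 1104 and 1604 TPM in heterozygous hearts. After scaling the levels were 2164 and 2029 TPM against 1345 and 1762 TPM. As for Myl2, heterozygous heart 1 had the lowest value and the genotypes did not overlap. The scaled means were 2096 ± 95.6 and 1554 ± 295 TPM (SD, n = 2), a fold of 0.741. This corresponded to a log2 fold change of -0.44 ± 0.22 (SE; 95% interval from -0.98 to 0.09; limma, adjusted p = 0.453), the smallest adjusted p among the members.

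Set against the heavy chains of the same heart, both light chains were lower in heterozygous hearts. The ratio of Myl2 to the sum of Myh6 and Myh7 was 75.3% and 71.5% in wild-type hearts and 52.1% and 54.3% in heterozygous hearts. The genotypes were well apart, since the wild-type hearts differed by 0.07 and the heterozygous hearts by 0.06 on the log2 scale, whereas the genotypes differed by -0.46. The ratio of Myl3 to the same sum was 22.8% and 22.2% in wild-type hearts and 14.8% and 16.8% in heterozygous hearts, a log2 difference of -0.51. Here too no heterozygous heart reached a wild-type value. Each gave p = 0.333 in the exact permutation test, two-sided, the smallest that this design allows. The means were 73.4% ± 2.68 and 53.2% ± 1.52 for Myl2, and 22.5% ± 0.422 and 15.8% ± 1.45 for Myl3 (SD, n = 2). Leaving out each heart in turn kept the differences between -0.50 and -0.43 for Myl2 and between -0.61 and -0.42 for Myl3.

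The proportion of the light chains to each other overlapped between the genotypes. The ratio of Myl2 to Myl3 was 3.30 and 3.22 in wild-type hearts and 3.53 and 3.23 in heterozygous hearts. These values overlapped, and their log2 difference of 0.05 was smaller than the gap of 0.13 from one heterozygous heart to the other (p = 0.667 by the exact permutation test).

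**Figure D2:**
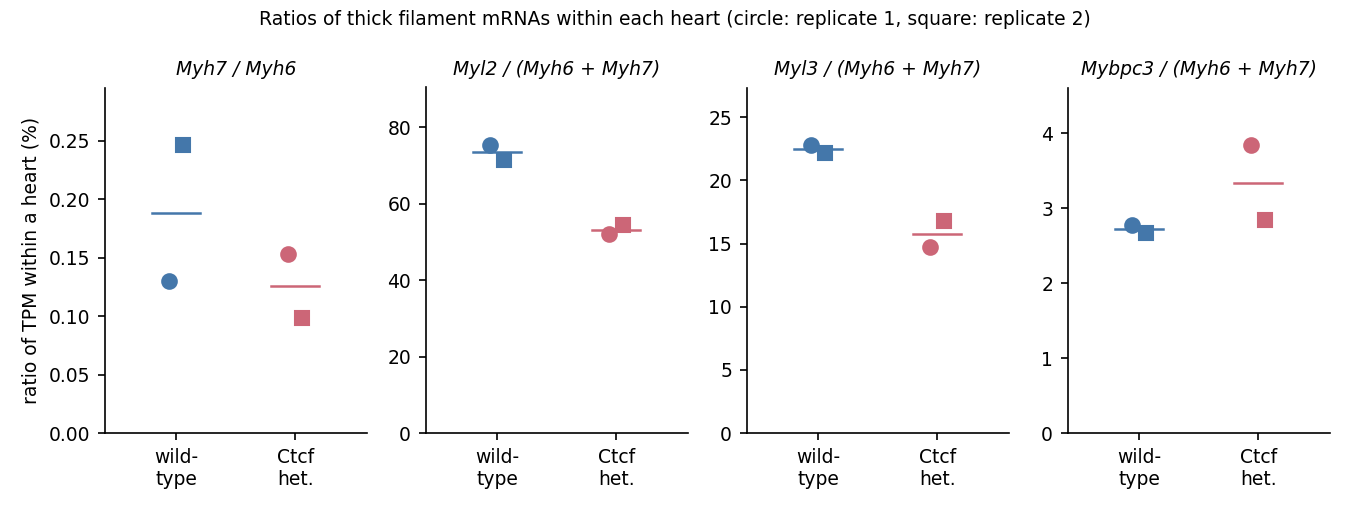
Ratios of TPM within each heart, in percent, on axes that start at 0, with circles for replicate 1, squares for replicate 2 and a bar for the genotype mean (n = 2). Myh7 to Myh6 overlapped between genotypes, Myl2 and Myl3 per heavy chain were lower in both heterozygous hearts, and Mybpc3 per heavy chain was higher in both, with heterozygous heart 1 at 3.84% and heterozygous heart 2 at 2.84%.

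The same ratio was taken for every other gene to give a background, a comparison added after the light chain values were seen. TPM per Myh6 plus Myh7 were lower in both heterozygous hearts for 29.9% of all genes tested and higher in both for 15.3%. The median log2 difference over the 9968 genes above 0 in every heart was -0.08. A value below that of Myl2 was found for 11.8% of these genes and a value below that of Myl3 for 9.38%, so the light chains lay in the lower part of the distribution without standing apart from it.

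Other cardiomyocyte transcripts were set beside them. Of 16 cardiomyocyte markers, 9 were lower in both heterozygous hearts per heavy chain, 1 was higher and 6 overlapped, with a median log2 difference of -0.27. Over all genes tested 29.9% were lower in both per heavy chain and 15.3% higher, and all these ratios share the same denominator. On scaled TPM 6 of the 16 were lower in both and 1 was higher, beside 24.0% and 23.0% of all genes tested. The values reached -0.56 for Tpm1, the alpha-tropomyosin of the thin filament, -0.55 for Pln, the inhibitor of the calcium pump of the sarcoplasmic reticulum, and -0.54 for cardiac actin, Actc1. Tnnc1, the calcium sensor of the troponin complex, was at -0.42 and the calcium pump gene Atp2a2 at -0.40. Values close to those of Myl2 and Myl3 were thus seen in some thin filament and calcium handling genes but not in others. The calcium handling gene Casq2 (-0.28) and the troponin gene Tnnt2 (-0.26) were lower in both heterozygous hearts by less. The calcium handling gene Ryr2 was at -0.12 and overlapped between genotypes. Tnni3, the inhibitory troponin subunit, was at -0.04 and Actn2, the alpha-actinin of the Z-disc, at 0.08, and both overlapped between genotypes.

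**Figure D3:**
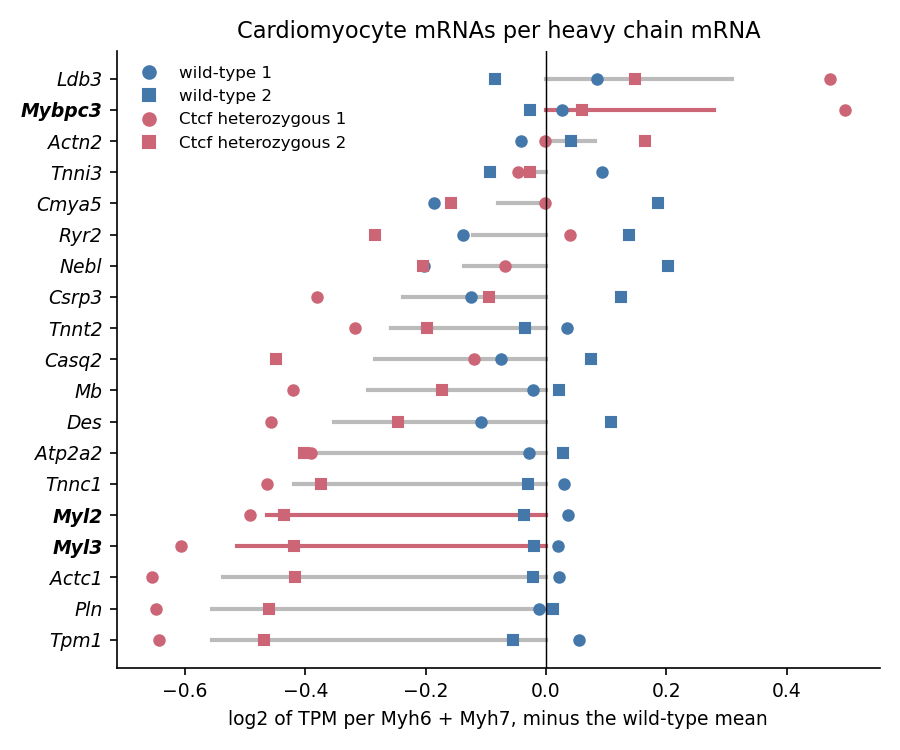
Level per heavy chain (TPM divided by the sum of Myh6 and Myh7) of Myl2, Myl3, Mybpc3 and 16 cardiomyocyte markers, as log2 with the wild-type mean at 0, where each point is a heart and each line runs from 0 to the heterozygous mean. Myl2 and Myl3 lay among Tnnc1, Actc1, Pln and Tpm1 at the low end, and Mybpc3 lay beside Ldb3 at the high end.

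Several other measures moved between the hearts. The 10 atrial markers summed to 8.75% and 26.0% of the heavy chain TPM in wild-type hearts and to 21.3% and 31.5% in heterozygous hearts, and 9 of the 10 were above 0 in every heart, Bmp10 being listed at 0 in wild-type heart 1. Myl7, the atrial counterpart of Myl2, stood at 4.21% and 12.3% of Myl2 in wild-type and at 13.3% and 18.1% in heterozygous hearts. Myl4, the atrial counterpart of Myl3, stood at 4.81% and 14.5% of Myl3 in wild-type and at 18.1% and 25.5% in heterozygous hearts. Wild-type heart 1 was thus lowest in the atrial sum and in both ratios, and both ratios were higher in both heterozygous hearts. Their denominators, Myl2 and Myl3, were themselves lower in both heterozygous hearts. Per heavy chain Myl7 (3.17% and 8.79% against 6.93% and 9.81%) and Myl4 (1.10% and 3.21% against 2.67% and 4.29%) overlapped between genotypes. Not all atrial markers were lowest in wild-type heart 1, since Kcna5, Kcnj3 and Nr2f2 were lowest per heavy chain in heterozygous heart 2. The part of the atrial share in the light chain difference was not tested.

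The 6 erythroid markers summed to 9.84% and 10.7% of the heavy chain TPM in wild-type hearts and to 10.6% and 20.1% in heterozygous hearts. Heterozygous heart 2 alone was high in them. Among the other lists, 3 of 10 skeletal muscle markers (Myh1, Myh2 and Myh4) were listed at 0 in all 4 hearts, and the sum of that list was 29.3 and 52.3 TPM in wild-type and 36.4 and 74.2 TPM in heterozygous hearts. Fibroblast markers summed to 62.9 and 102.5 TPM in wild-type and 44.6 and 52.8 TPM in heterozygous hearts, and macrophage markers to 37.8 and 46.1 TPM against 20.7 and 33.5 TPM. Smooth muscle markers summed to 61.0 and 63.1 TPM against 30.8 and 56.1 TPM, and endothelial markers to 295.5 and 340.3 TPM against 247.9 and 316.2 TPM. On deposited TPM the fibroblast, macrophage and smooth muscle sums were lower in both heterozygous hearts, as were 67.8% of all genes tested. The endothelial sums overlapped. Per heavy chain the fibroblast and macrophage sums were still lower in both heterozygous hearts, but not every marker was. Of the fibroblast markers, Dcn, Lum and Tcf21 were lower in both, and Col1a1, Col1a2, Col3a1 and Pdgfra overlapped. Of the macrophage markers, only Lyz2 was lower in both, and Csf1r, Cd68, Adgre1, C1qa and Ptprc overlapped. The smooth muscle sums then overlapped, at 0.594% and 0.545% against 0.411% and 0.588%. The endothelial sums were then higher in both, at 2.87% and 2.94% against 3.31% and 3.31%. Most of each endothelial sum was Egfl7, the only marker of that list that was higher in both per heavy chain (log2 difference 0.31). Pecam1 (-0.54), Kdr (-0.30), Emcn (-0.22) and Tek (-0.13) were lower in both, and Cdh5 and Tie1 overlapped. The 6 stress genes summed to 742.9 and 1889 TPM in wild-type and to 1137 and 1922 TPM in heterozygous hearts, which overlapped, and most of each sum was Nppa, also an atrial marker. Nppb, the B-type natriuretic peptide, whose gene was chosen after its values were seen, was at 109.4 and 120.5 scaled TPM in wild-type and 163.4 and 211.5 scaled TPM in heterozygous hearts. It was higher in both heterozygous hearts, with a log2 fold change of 0.69 ± 0.21 (SE) that did not pass the call (limma, adjusted p = 0.336). On scaled TPM 2 of the 6 stress genes were higher in both heterozygous hearts. Another 2, Xirp2 (log2 fold change -0.35) and Actn1 (-0.21), were lower in both. Of all genes tested, 23.0% were higher in both and 24.0% lower in both. All 16 cardiomyocyte markers were above 0 in every heart and summed to 14205 and 15477 TPM in wild-type and to 7976 and 11135 TPM in heterozygous hearts. The part of these cell types in the values of the members was not tested.

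Transcript length also differed, since the longest annotated transcripts were 889 bases for Myl2 and 1125 bases for Myl3 against 6113 for Myh6 and 6230 for Myh7. Over all genes tested, the median log2 fold change was -0.11 for 751 genes of at most 1000 bases and -0.00 for 3551 genes over 4000 bases. After a correction for GC content and length the values were -0.27 for Myl2 and -0.35 for Myl3. The part of length in the light chain difference was not tested further.

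Mybpc3 (ENSMUSG00000002100.15, chr2:91118144-91136516, plus strand) encodes the cardiac myosin binding protein C of the thick filament's C-zone. The table lists it at 285.0 and 309.6 TPM in wild-type hearts and at 287.2 and 270.8 TPM in heterozygous hearts, which overlapped. After scaling the levels were 263.3 and 244.3 TPM against 349.9 and 297.4 TPM, higher in both heterozygous hearts. Its log2 fold change was 0.35 ± 0.20 (SE; 95% interval from -0.12 to 0.81; limma, adjusted p = 0.490) and turned to -0.091 on TPM as deposited. Per heavy chain Mybpc3 stood at 2.77% and 2.67% in wild-type hearts and at 3.84% and 2.84% in heterozygous hearts, a log2 difference of 0.28 (exact permutation test, two-sided, p = 0.333). The heterozygous hearts differed by 0.44 on the log2 scale, more than the genotypes, and without heterozygous replicate 1 the difference was 0.06. Of all genes, 85.7% had a value below that of Mybpc3.

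Mylk3 (ENSMUSG00000031698.14, chr8:85324303-85386345, minus strand) encodes the cardiac myosin light chain kinase that phosphorylates the Myl2 product. Its levels were 26.5 and 40.3 TPM in wild-type hearts and 24.8 and 24.7 TPM in heterozygous hearts. Scaled, the levels were 24.4 and 31.8 TPM against 30.2 and 27.1 TPM, both heterozygous values lying between the wild-type values. The fit gave a log2 fold change of 0.04 ± 0.19 (SE; 95% interval from -0.41 to 0.49; limma, adjusted p = 0.946), which turned to -0.39 on TPM as deposited. The ratio of Mylk3 to Myl2, kinase to substrate transcript, was 0.342% and 0.486% in wild-type and 0.635% and 0.477% in heterozygous hearts. These values overlapped, with a log2 difference of 0.43 (exact permutation test, two-sided, p = 0.667).

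**Figure D4:**
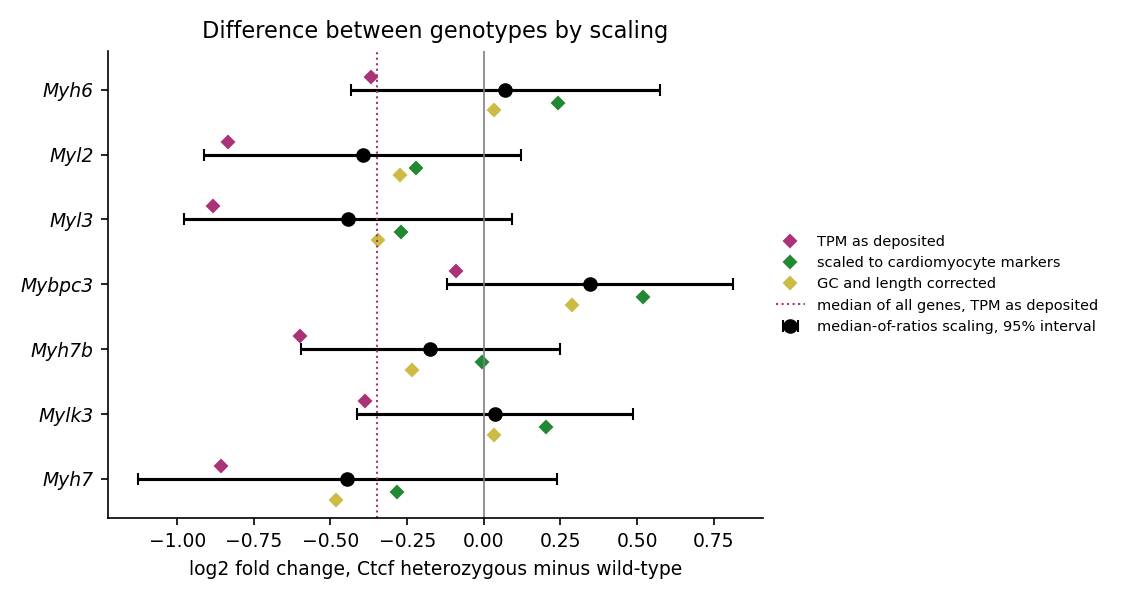
Log2 fold change of each member, Ctcf heterozygous minus wild-type, with black points for scaled TPM and bars for the 95% interval of limma (2 hearts per genotype), diamonds for TPM as deposited, TPM scaled to cardiomyocyte markers and TPM corrected for GC content and length, and a dotted line at the median of all genes as deposited (-0.35). Every black interval spans 0, and Myl2, Myl3, Myh7 and Myh7b lay below 0 under each of these scalings.

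Other genes of the thick filament were read from lists that held no member. For the other myosins, partners and regulators named, TPM are as deposited unless called scaled. Their fold changes are on scaled TPM, so the direction can differ from that of the deposited values. Of 20 other myosin and myosin binding genes, 13 were tested, 8 with a positive and 5 with a negative log2 fold change and a median of 0.16, limma called none, and 2 had an unadjusted p under 0.05. Among those of mean TPM at least 5, the smallest p values belonged to Myl1, the essential light chain of fast skeletal muscle, and Myl12a and Myl12b, regulatory light chains of nonmuscle myosin. Myl1 was listed at 24.6 and 46.5 TPM in wild-type and 33.0 and 69.3 TPM in heterozygous hearts, a log2 fold change of 0.92 (limma, adjusted p = 0.375). Myl12a was at 109.1 and 131.0 TPM against 59.2 and 70.9 TPM, a log2 fold change of -0.44 (limma, adjusted p = 0.389). Myl12b was at 16.6 and 25.2 TPM against 17.8 and 22.8 TPM. Scaled, it was at 15.3 and 19.9 TPM against 21.7 and 25.0 TPM, a log2 fold change of 0.40 (limma, adjusted p = 0.430). The 2 nonmuscle light chains thus had fold changes of opposite sign, neither of which passed the test.

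Among 24 partners of the thick filament (titin, M-band proteins, chaperones, kinases, phosphatases and ubiquitin ligases), 22 were tested, 11 in each direction, with a median of -0.01, no call by limma and 2 at an unadjusted p under 0.05. These were Myom3, an M-band protein, with a log2 fold change of 0.67 (limma, adjusted p = 0.307) at 1.02, 1.78, 2.15 and 2.05 TPM in the 4 hearts, and the ubiquitin ligase gene Trim55, with -0.45 (limma, adjusted p = 0.342) at 3.64, 4.66, 1.70 and 2.35 TPM. Both were below a mean of 5 TPM, the level required of the genes that follow, and are named after their values were seen. Camk2d, a calcium-dependent kinase with Mybpc3 among its substrates, was at 12.3, 14.4, 13.1 and 12.2 TPM in the 4 hearts. Scaled, it was at 11.4, 11.4, 16.0 and 13.4 TPM, a log2 fold change of 0.34 (limma, adjusted p = 0.430). Myom2, which links thick filaments at the M-band, was listed at 40.3 and 95.1 TPM in wild-type and 28.1 and 29.1 TPM in heterozygous hearts, a log2 fold change of -0.66 (limma, adjusted p = 0.433). Its highest value was in wild-type heart 2, as for Myh7. Obsl1, an obscurin-like cytoskeletal linker, was at 27.3, 42.7, 36.6 and 31.8 TPM. Scaled, it was at 25.2, 33.7, 44.6 and 35.0 TPM, a log2 fold change of 0.43 (limma, adjusted p = 0.453).

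Of 22 transcription factors, receptors and cofactors that act on the myosin genes, 17 were tested, 4 with a positive and 13 with a negative log2 fold change, with a median of -0.06 and no call by limma. Thra, the thyroid hormone receptor through which the hormone favours Myh6 over Myh7, was listed at 10.9 and 9.50 TPM in wild-type and 5.53 and 6.74 TPM in heterozygous hearts. Its log2 fold change was -0.27 (limma, adjusted p = 0.542). Mef2a, a muscle transcription factor, was at 21.8, 23.1, 16.0 and 12.1 TPM in the 4 hearts, a log2 fold change of -0.24 (limma, adjusted p = 0.651). Rxrb, a partner receptor of thyroid hormone receptors, was at 8.08, 8.73, 6.65 and 6.43 TPM, lower in both heterozygous hearts as deposited. Scaled, it was at 7.46, 6.89, 8.10 and 7.06 TPM, which overlapped, a log2 fold change of 0.07 (limma, adjusted p = 0.869). None of the 17 regulators tested had an unadjusted p under 0.05.

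Genes most like Myh7 and Myh6 over the 4 hearts were ranked by the root mean square difference of their centred log2 scaled levels, over 2574 genes of at least 10 TPM. For Myh7 they included Myom2 (0.16) and Tacc2 (0.17). For Myh6 they were Rnh1 (0.0088), Ilkap (0.0092) and Psma4 (0.015), whose levels like those of Myh6 moved little. With 4 hearts and 2574 genes, likeness of this size is a description only.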

How the data were processed

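Hearts of 4 mice were sequenced as poly(A) RNA, 2 wild-type and 2 Ctcf heterozygous, grouped by the sample titles. The authors trimmed reads with Trim Galore, aligned them to mm10 with STAR and quantified genes with RSEM (names from the submitters' processing notes) and deposited TPM values per gene, rounded to 2 decimals. RSEM estimates how reads that fit several genes are divided. Counts were not used here, so no count model was fitted and the depth per sample is unknown. TPM are shares of a fixed total, so a larger mitochondrial share lowers every other gene.

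TPM were divided by median-of-ratios factors over genes above 0 in every library, then a pseudocount of 1 was added before log2. A mean TPM of 1 or more was required, and the 10036 genes that met it entered limma (3.58.1; lmFit, eBayes with trend, two-sided, prior 4.76 degrees of freedom) in R (4.3.3), with Benjamini-Hochberg adjustment over all of them. Ratios within a heart used TPM as deposited and an exact permutation test. Tables were made with Python (3.11.15), pandas (2.3.3) and scipy (1.17.1). Nuclear copies of mitochondrial genes (11) were found with BLAST+ (2.17.0) at 95% identity over 80% of length. Identifiers of 55141 rows matched GENCODE M21, which gave coordinates, coding sequences and windows, and 107 symbols stood on more than 1 row, none of them a member.

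The members and gene lists were chosen with earlier results of these data known. All members were named. From lists of other myosins, thick filament partners and isoform regulators, genes passing the call were named, or else up to 3 of mean TPM at least 5 with the smallest p, and for Myh6 and Myh7 the 3 most alike genes, 1 of which is not reported here. Cardiomyocyte genes named per heavy chain, Mhrt and the microRNAs were chosen after their values were seen.

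On simulated data for this comparison with 200 changed genes of 9839, 38 of 100 genes changed by 1 on the log2 scale and 87 of 100 changed by 2 were called, with 3 false calls. The changed genes were drawn without those of the lowest levels, and the spreads were shuffled over genes. These shares therefore do not describe genes near the filter, and the link of spread to level was not kept. The alternatives were other pseudocounts and filters, other scalings and corrections, eBayes without trend, a replicate block, summed gene models and each library left out in turn.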

Additional observations from a re-analysis of the deposited data

How the results depend on the processing

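No member passed the call under any of the 18 alternatives to the limma fit, and the smallest adjusted p was 0.0693, for Myl2 and Myl3 with mitochondrial genes removed. Myl2 stayed between -0.96 and -0.22, Myl3 between -0.88 and -0.25, Myh7 between -0.86 and -0.04 and Myh7b between -0.60 and -0.01 on the log2 scale. The median over all genes was -0.35 on TPM as deposited, -0.31 with mitochondrial genes removed and 0.12 when scaled to cardiomyocyte markers. Signs turned for Myh6 to -0.37 as deposited, -0.26 with mitochondrial genes removed, -0.30 under quantile normalization and -0.037 without heterozygous replicate 2. They turned for Mybpc3 to -0.091 as deposited, and for Mylk3 to -0.39 as deposited, -0.28 with mitochondrial genes removed, -0.15 without wild-type replicate 1 and -0.041 without heterozygous replicate 1. The ratio of Myl2 to Myl3 turned to -0.015 without heterozygous replicate 1 and was 0.11 without heterozygous replicate 2. The cause was not tested.

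Leaving out each library in turn gave ranges of -0.037 to 0.17 for Myh6, -0.86 to -0.037 for Myh7, -0.30 to -0.06 for Myh7b, -0.53 to -0.27 for Myl2, -0.64 to -0.25 for Myl3, 0.23 to 0.46 for Mybpc3 and -0.15 to 0.22 for Mylk3. The corresponding ranges of the ratios were -1.005 to -0.08 for Myh7 to Myh6, -0.42 to -0.07 for Myh7b to Myh6 and 0.18 to 0.69 for Mylk3 to Myl2.

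Over all genes, 3 were called lower and 0 higher. The count of lower genes became 0 with no filter on low values, 11 on TPM as deposited, 12 with mitochondrial genes removed, 8 with the replicate block, 1 with gene models of one symbol summed and 1 with the GC content and length correction together with the replicate block, and lay between 3 and 25 with a library left out. The count of higher genes became 2 on TPM as deposited, 2 with mitochondrial genes removed, 1 when scaled to cardiomyocyte markers, 3 with the replicate block, 1 with the GC content and length correction, 2 with mitochondrial genes and their copies removed and 1 at an adjusted p under 0.1, and lay between 4 and 12 with a library left out, when the lone library of its genotype is assumed to vary like the other genotype.

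Same-numbered hearts are different mice, and no source used here states whether they shared a litter or a batch. Their deviations correlated at 0.10, and a shared batch was not tested. The replicate block left the Myh7 to Myh6 difference at -0.54 and changed no call of a member, and 2 pairs allow no exact p below 0.5. Corrections for GC content and length, removal of nuclear copies and the addition of Mhrt were chosen after the values were seen. Depth is unknown, so counting error could not be separated from the spread between animals.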
